A study of Homo sapiens with 6 samples.

Results

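The 10 genes described here belong to the BCL2 family, which decides whether a cell's mitochondria release the signal for apoptosis: the survival genes BCL2, BCL2L1, BCL2L2, MCL1 and BCL2A1, the effectors BAX and BAK1, and the BH3-only genes BID, BAD and BBC3. They were chosen by name, 10 of the 18852 genes that the array names with a probe of 1 symbol. Every probe that the platform annotation gives to 1 of them was taken, 21 of the 48803 probes on the array, and each probe is shown on its own. Expression was measured in SKOV3ip1, an ovarian cancer cell line derived from SKOV3, on 6 single-colour Illumina bead arrays. The siCon group (3 arrays) was given control siRNA, and the siSTAT3 group (3 arrays) was given siRNA that targets STAT3. The cells carry no other stated difference. The labels give neither the siRNA sequences nor the time after transfection, and they do not say whether the arrays came from separate cultures, so the spread behind each p-value is that of these samples and may be technical.

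Survival proteins of the family hold BAX and BAK1 in check at the outer mitochondrial membrane, and BH3-only proteins sense stress and release or activate them. Once active, BAX and BAK1 form pores through which cytochrome c escapes and starts the caspases. BCL2, BCL2L1 (BCL-XL) and MCL1 are known in many tumour types as genes switched on by STAT3, a transcription factor that cytokines and growth factors turn on.

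No BCL2 family probe passed the threshold in either direction after STAT3 siRNA, where 0.871% of all tested probes did. At that share the absence is no result about the family. The largest difference was on a BAX probe, which averaged 1.49-fold higher with an adjusted p of 0.0558, just outside the threshold. Next came a BCL2L2 probe (1.32-fold higher), and both MCL1 probes (1.30-fold and 1.22-fold lower) and a BCL2L1 probe (1.21-fold lower), none of them past it. The BCL2A1 and BBC3 probes and 2 of the 4 BCL2 probes lay close to the array median or below it in both groups. STAT3 itself was strongly reduced on the same arrays.

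The check of the target and of the arrays comes before the family's values. On its brightest probe STAT3 fell from 2515 ± 268 in siCon to 601 ± 59.98 in siSTAT3 (mean intensity ± SD, n = 3 in each group, as everywhere below), a log2 change of -2.06 ± 0.11 (siSTAT3 minus siCon ± SE, as everywhere below) with an adjusted p of 2.32e-07, and its other probes gave -1.74 and -1.63. Median unnormalised intensity lay between 93.0 and 97.1 on the 6 arrays. On the first principal component siCon replicate 3 scored -30.8, while the other siCon arrays scored -1.02 and 0.78 and the siSTAT3 arrays 8.92 to 12.7, so changes of family probes that moved by over 1.5 times without it are given both ways. All 10 carcinoma and ovarian marker genes had a probe above the filter on dim probes, although the MUC16 probe and both WT1 probes lay near the array median. By the same filter 3 leukocyte, 3 endothelial and 4 fibroblast marker genes also had a probe above it (6, 3 and 5 probes). PTPRC, CD3E, VWF and LUM lay below the filter on every probe, and 1 of the 6 leukocyte marker genes had no probe. Summed on each siCon array, the 12 leukocyte probes read 2711 to 3383, the 4 endothelial probes 345 to 422 and the 11 fibroblast probes 1015 to 1068. None of these tested marker probes differed between the groups at the threshold, which 0.871% of all tested probes passed. A lack of difference does not bear on whether such cells were present.

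A probe was tested if its mean intensity over the 6 arrays was above the 40th percentile of all probes, an intensity of 90.1. The median of all probes was 93.1, and no background was subtracted, so fold changes of dim probes are understated by whatever background remains. Of the 21 family probes 17 passed this filter and 4 did not, and BBC3 was the 1 gene with no tested probe. A probe was called if its p-value from limma, adjusted over all 29282 tested probes, was under 0.05. Of all tested probes 0.871% were called, 0.201% higher and 0.669% lower. None of the 17 family probes was among them, which at such a background share is no result about the family. Their log2 changes ran from -0.38 to 0.57 with a median of -0.07, beside a median of 0.00 over all tested probes. At an unadjusted p under 0.05 there were 5 of them, 2 higher and 3 lower, where 10.2% of all tested probes reached that level, 5.21% higher and 4.99% lower. In bulk RNA a smaller share of cells expressing a gene and less RNA per cell cannot be told apart.

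**Figure D1:**
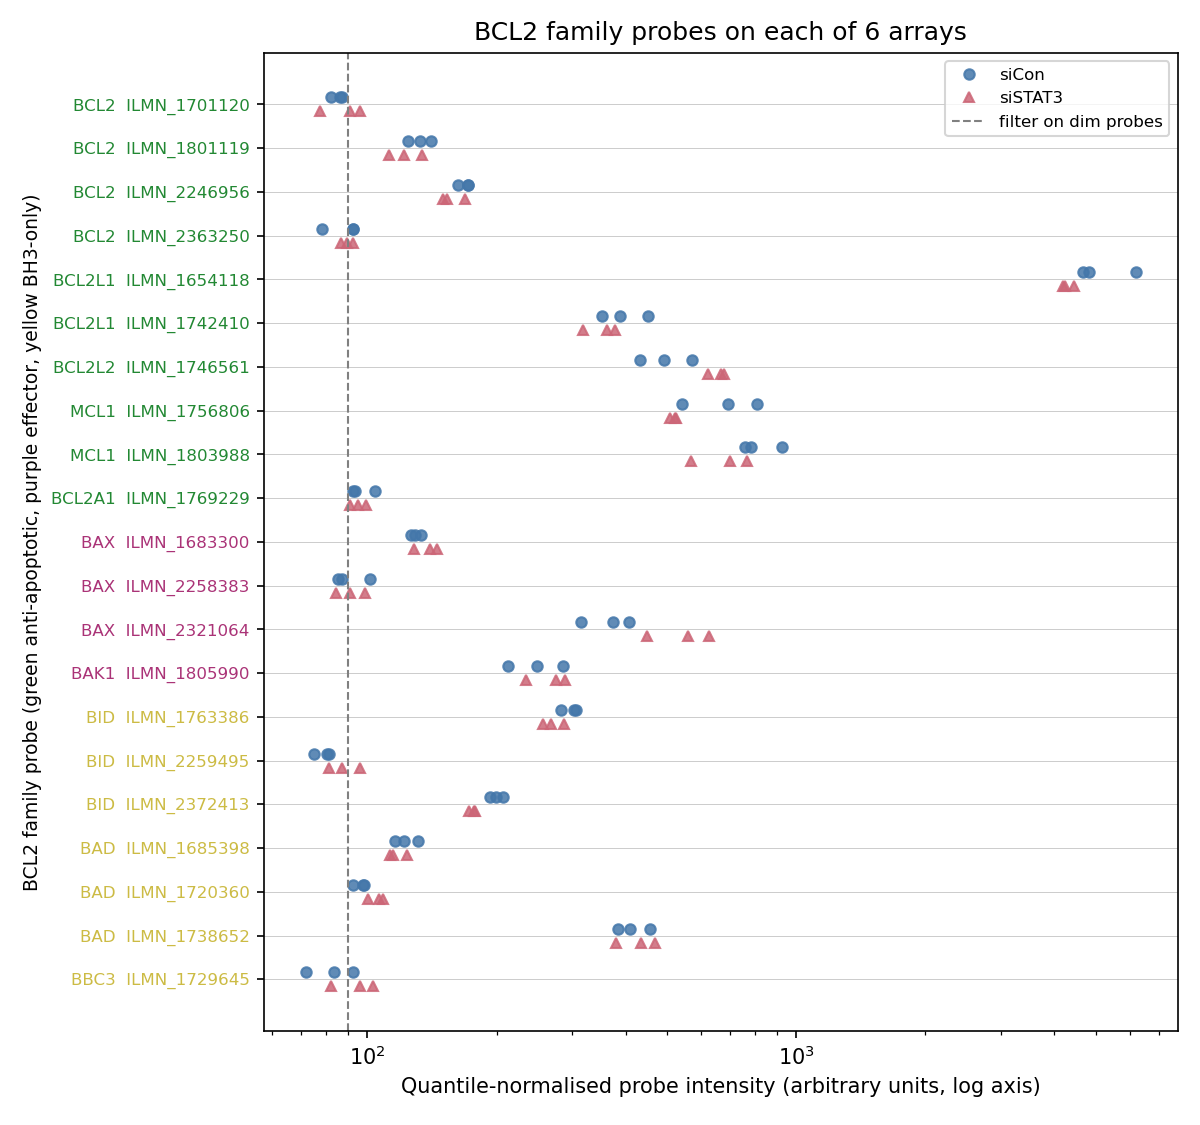
Quantile-normalised intensity (x axis, arbitrary units, log scale) of each of the 21 BCL2 family probes (y axis) on the 3 siCon arrays (circles) and the 3 siSTAT3 arrays (triangles). The dashed line is the filter at 90.1. The groups separate on 6 tested family probes, where 15.1% of all tested probes separate. The BBC3 probe straddles the line in both groups.

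The DNA before the start of BAX, BCL2L1 and BCL2A1 is shown because BAX held the largest difference, BCL2L1 is a gene widely named as a STAT3 target, and BCL2A1 was the 1 member whose window held the STAT motif. The sequences are the 250 bases before a RefSeq transcript start on GRCh38.p14, written 5′ to 3′ on the gene's strand, at chr19:48954625-48954874 (plus strand) for BAX, chr20:31723964-31724213 (minus strand) for the upstream start of BCL2L1, and chr15:79971197-79971446 (minus strand) for BCL2A1. Capitals mark TTCNNNGAA, the palindromic core bound by STAT dimers, and CACGTG, the E-box of MYC and related factors. Both read the same on either strand, and no family window held both.
BAX: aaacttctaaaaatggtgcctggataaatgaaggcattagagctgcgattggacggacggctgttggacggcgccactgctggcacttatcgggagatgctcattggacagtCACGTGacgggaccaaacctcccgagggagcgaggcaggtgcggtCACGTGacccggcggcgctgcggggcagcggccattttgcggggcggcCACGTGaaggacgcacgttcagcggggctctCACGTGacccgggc
BCL2L1: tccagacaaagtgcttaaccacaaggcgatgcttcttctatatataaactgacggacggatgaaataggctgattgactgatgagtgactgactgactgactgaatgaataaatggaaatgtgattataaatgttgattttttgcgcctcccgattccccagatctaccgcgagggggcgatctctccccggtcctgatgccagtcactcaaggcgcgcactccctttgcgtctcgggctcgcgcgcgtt
BCL2A1: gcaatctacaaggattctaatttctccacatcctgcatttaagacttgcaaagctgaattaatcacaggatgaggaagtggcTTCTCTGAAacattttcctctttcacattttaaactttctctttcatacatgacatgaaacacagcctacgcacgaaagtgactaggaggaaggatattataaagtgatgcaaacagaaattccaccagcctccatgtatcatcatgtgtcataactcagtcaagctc

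The table of promoters held 14 windows for 8 of the 10 genes, and MCL1 and BCL2L2 were not among them. TTCNNNGAA occurred in 1 of the 14 windows, 168 bases before the start of BCL2A1, and in 6.57% of 35116 windows of all genes. The E-box, searched after the BAX window had been read, occurred 4 times before BAX, at 138, 93, 45 and 14 bases from the start. It occurred at least 4 times in 0.0142% of all windows (5 of 35116, the BAX window among them). The cut-off of 4 was taken from BAX itself, so that share carries no test. It occurred at least once in 4 of the 14 family windows and in 6.34% of all windows. The 4 windows belong to BAX, BBC3 and, as 2 overlapping windows that share 1 match, BID. A match is a run of letters, and whether any factor bound there was not measured.

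BAX, the effector that moves from the cytosol to mitochondria when a cell is stressed, held the largest difference in the family. Probe ILMN_2321064 read 407, 374 and 315 on siCon replicates 1 to 3 and 449, 626 and 559 on siSTAT3 replicates 1 to 3. Every siSTAT3 array was above every siCon array, with siSTAT3 replicate 1 closest to the controls. The means were 365 ± 46.6 and 545 ± 89.3, a log2 change of 0.57 ± 0.13 (95% interval 0.29 to 0.85, unadjusted p = 0.000543, adjusted p = 0.0558). Of all tested probes 7.5% had siSTAT3 arrays that were all above the siCon arrays.

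The value sat on the edge of the threshold, and the call depended on the setting. When 1 probe stood for each gene, which lowers the number of tests to 14154 and calls 0.396% of them higher, BAX had an adjusted p of 0.0486. It also passed with a normexp background correction (adjusted p = 0.0489, 0.212% of tested probes called higher) and with no filter (0.0377, 0.162% called higher). Over the alternatives run its log2 change stayed between 0.46 and 0.70, and without siSTAT3 replicate 2 or 3 the adjusted p was 0.305 or 0.268. Without siCon replicate 3 the change was 0.47 (adjusted p = 0.0597).

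**Figure D2:**
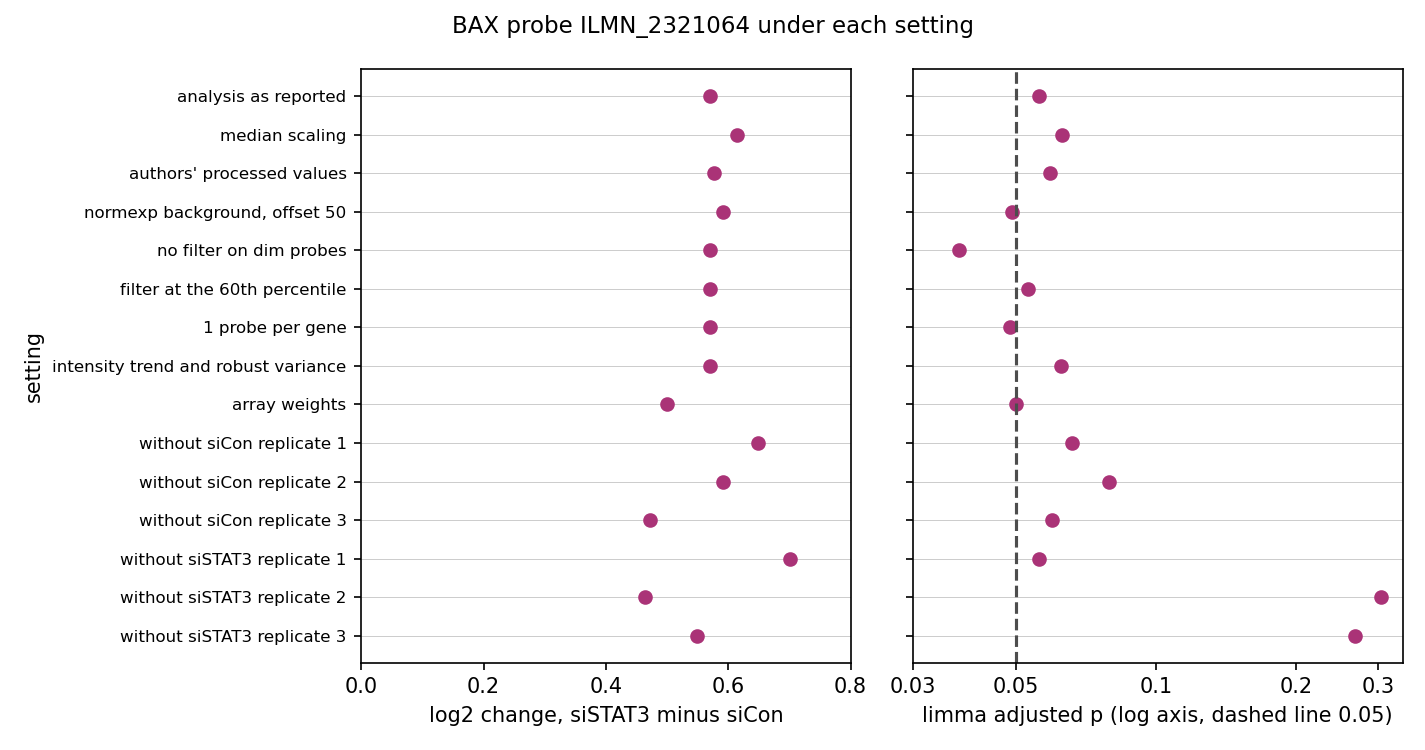
BAX probe ILMN_2321064 under the reported analysis and each alternative named on the y axis: log2 change, siSTAT3 minus siCon (left x axis), and limma adjusted p (right x axis, log scale, dashed line at 0.05). Over the settings plotted the change stays above 0.46, while the adjusted p runs from 0.0377 to 0.305. The fit with the replicate number as a block, given at the end, is not plotted (adjusted p = 0.0347).

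Neither of the other BAX probes passed the threshold. Probe ILMN_1683300, annotated to another BAX transcript, read 133, 126 and 129 in siCon and 139.8, 145 and 129 in siSTAT3, a log2 change of 0.09 (95% interval -0.12 to 0.29). Probe ILMN_2258383 carries the same transcript record in the annotation as the bright probe and read 85.4, 101 and 87.3 against 91.1, 98.9 and 84.3, a log2 change of 0.00 (95% interval -0.23 to 0.23), and -0.029 without siCon replicate 3. Both overlapped between groups, and the mean of ILMN_2258383, at 91.4, lay just above the filter, while that of ILMN_1683300 was 133.7. Within each array the bright probe's log2 value minus the mean of the other probes was 1.93, 1.73 and 1.57 in siCon and 1.99, 2.39 and 2.42 in siSTAT3. The groups' means of that difference lay 0.53 apart (exact permutation p = 0.1, the smallest that 3 against 3 arrays can give, and 0.6 adjusted over the 6 genes compared). In each gene the probe of largest change on these same arrays was set against the others. That choice favours a low p-value, so no conclusion is drawn from it. Where in the gene each probe binds was not looked up here.

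BAK1, the effector that sits in the mitochondrial membrane of healthy cells, was measured by 1 probe. It read 213, 249 and 286 in siCon and 289, 275 and 235 in siSTAT3. The groups overlapped, with a log2 change of 0.10 ± 0.12 (95% interval -0.16 to 0.36, adjusted p = 0.876), and without siCon replicate 3 it was 0.20 (adjusted p = 0.537). RefSeq lists pseudogene copies of BAK1, and whether they reach this probe was not tested.

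Among the survival genes BCL2L2, which encodes BCL-w, gave the clearest difference, and it was upward. Its probe read 492, 570.1 and 432 in siCon and 624, 677 and 666 in siSTAT3. The groups did not overlap, and the siSTAT3 arrays lay close together. The means of 498 ± 69.0 and 656 ± 28.2 gave a log2 change of 0.40 ± 0.11 (95% interval 0.17 to 0.64, unadjusted p = 0.00254, adjusted p = 0.133). Without siCon replicate 2, the highest control, the change was 0.50 and its adjusted p 0.0492 (0.263% of all tested probes called higher), and without siCon replicate 3, the lowest control, it was 0.31 with an adjusted p of 0.209. RefSeq also lists a readthrough gene, BCL2L2-PABPN1, and the array does not say which of them the probe reads.

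MCL1, a short-lived survival protein that many carcinoma cells depend on, was lower on both of its probes without passing the threshold. Probe ILMN_1756806 read 542, 692 and 809.6 in siCon and 507, 523 and 521 in siSTAT3. All siSTAT3 arrays were below all siCon arrays, but siCon replicate 1 was nearly as low as they were. Its log2 change was -0.38 ± 0.13 (95% interval -0.65 to -0.11, adjusted p = 0.257). Probe ILMN_1803988 read 928, 784 and 759.7 in siCon and 569, 701 and 766 in siSTAT3, where the groups overlapped, with a log2 change of -0.28 ± 0.12 (95% interval -0.55 to -0.02, adjusted p = 0.433).

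The 2 MCL1 probes ordered the control arrays in opposite ways, siCon replicate 1 being the lowest on the one and the highest on the other. Without siCon replicate 1 the change on ILMN_1756806 was -0.53 (adjusted p = 0.0558), and without siCon replicate 3 it was -0.25 (adjusted p = 0.407). Both probes carry the same transcript record, that of the long MCL1 form, in the annotation.

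BCL2L1, which encodes the survival protein BCL-XL, was also lower on both probes without passing. Probe ILMN_1654118 read 4820.0, 4659 and 6200.3 in siCon and 4192, 4442 and 4236 in siSTAT3. All siSTAT3 arrays were below all siCon arrays, and siCon replicate 3 stood far above the rest. The log2 change was -0.27 ± 0.12 (95% interval -0.52 to -0.03, adjusted p = 0.414), and without siCon replicate 3 it was -0.15 (adjusted p = 0.65). The dimmer probe ILMN_1742410 read 353, 387 and 451 in siCon and 318, 361 and 378 in siSTAT3, with overlapping groups, siCon replicate 3 again highest, and a log2 change of -0.17 (95% interval -0.41 to 0.07). Without siCon replicate 3 that change was -0.073, and without siSTAT3 replicate 1 it was -0.097. Of all tested probes 7.63% had siSTAT3 arrays that were all below the siCon arrays.

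**Figure D3:**
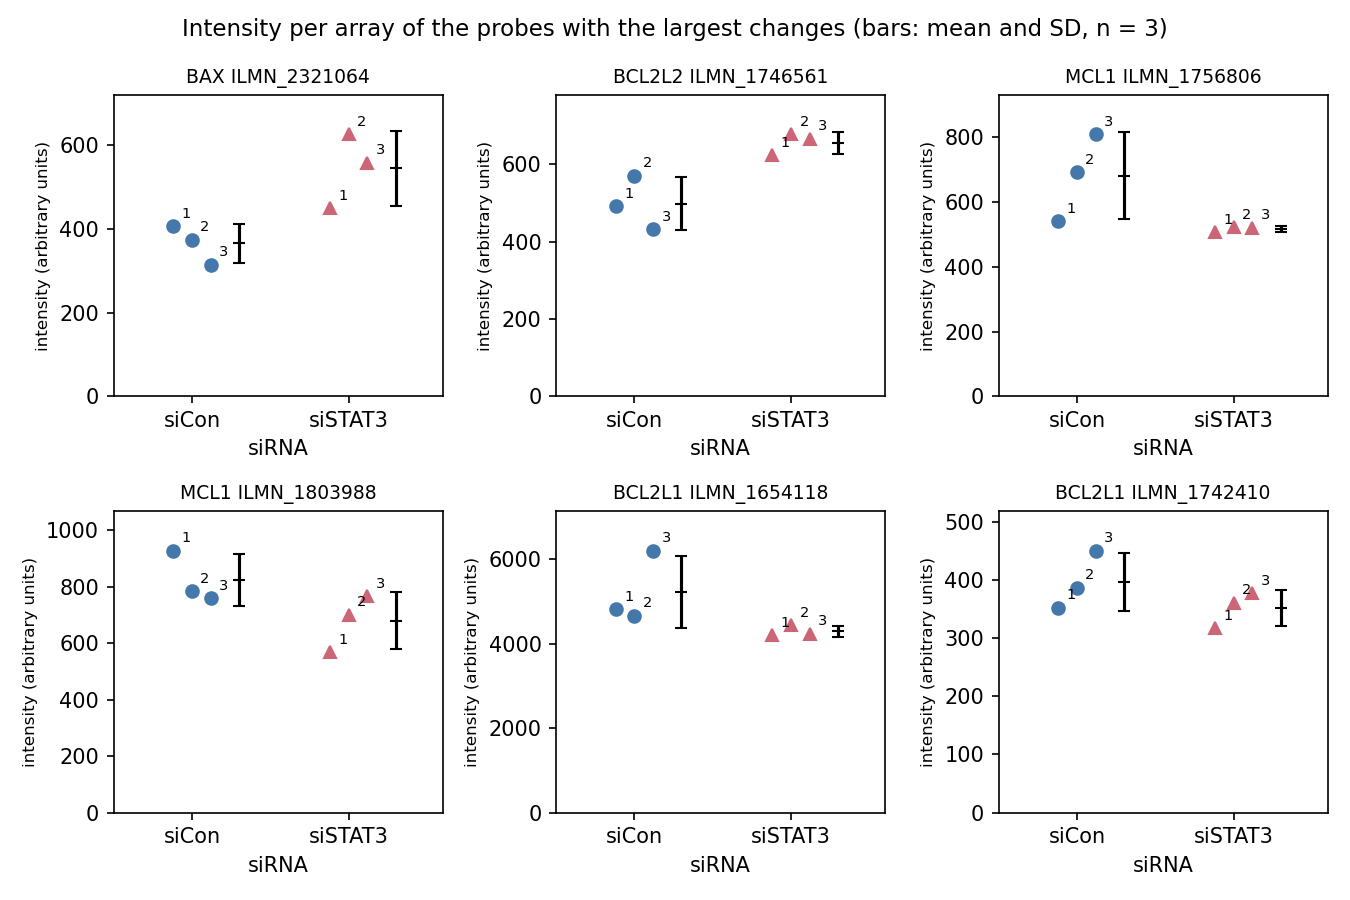
Intensity (y axis, from 0) of the 6 BAX, BCL2L2, MCL1 and BCL2L1 probes described above on each siCon (circles) and siSTAT3 (triangles) array. Numbers are replicate numbers and black bars the mean ± SD (n = 3). The groups separate for BAX, BCL2L2, MCL1 ILMN_1756806 and BCL2L1 ILMN_1654118, and siCon replicate 3 is the highest array on both BCL2L1 probes.

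BCL2, the founding survival gene of the family, was measured by 4 probes, 2 of them below the filter. The brighter pair, annotated to the long transcript, gave log2 changes of -0.12 (ILMN_1801119, 133, 141 and 125 in siCon against 122, 134 and 112 in siSTAT3) and -0.10 (ILMN_2246956, 171, 162 and 172 against 153, 169 and 149.8). Groups overlapped on both, and the 95% intervals, -0.34 to 0.11 and -0.31 to 0.11, reach further below 0 than above it. The pair annotated to the short transcript lay below the filter, between 77.3 and 95.9 on every array, and in the fit with no filter gave log2 changes of 0.04 and 0.03. BCL2A1, a survival gene best known in blood cells, read 104, 93.6 and 92.7 in siCon and 91.0, 94.996 and 99.3 in siSTAT3, near the array median in both groups (log2 change -0.02, 95% interval -0.24 to 0.19, and -0.056 without siCon replicate 3).

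BID, which caspase 8 cuts to link death receptors to mitochondria, was slightly lower on its tested probes. Probe ILMN_2372413 read 199.9, 207 and 193 in siCon and 178, 177 and 172 in siSTAT3. The groups were tight and did not overlap, yet the log2 change was only -0.18 ± 0.09 (95% interval -0.38 to 0.02, adjusted p = 0.555). Probe ILMN_1763386, annotated to another transcript, read 306, 304 and 282 against 256, 288 and 268 with a log2 change of -0.14 (adjusted p = 0.737). The third BID probe, ILMN_2259495, carries the same transcript record as ILMN_1763386 and lay below the filter. Its groups overlapped, and it went the other way in the fit with no filter (log2 change 0.16, adjusted p = 0.77).

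BAD, which binds BCL2 and BCL-XL unless survival kinases phosphorylate it, showed no common direction over its probes. The brightest, ILMN_1738652, read 409.6, 455 and 383 in siCon and 468, 434 and 381 in siSTAT3, with overlapping groups and a log2 change of 0.04 (95% interval -0.20 to 0.27). ILMN_1685398 gave -0.07 and ILMN_1720360 gave 0.13, the latter from 97.5, 92.6 and 98.1 to 106, 108 and 100.1 without overlap but near the array median. Without siCon replicate 3 ILMN_1738652 gave -0.020, ILMN_1685398 gave -0.11 and ILMN_1720360 0.14. BBC3, which encodes the BH3-only protein PUMA, read 92.7, 83.5 and 71.8 in siCon and 103, 82.2 and 96.1 in siSTAT3 on its 1 probe. It was below the filter on 3 of the 6 arrays, the groups overlapped, and in the fit with no filter the log2 change was 0.18 ± 0.11 (adjusted p = 0.761).

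By role, 1 of 8 tested survival probes lay above 0 and 7 below, all 4 effector probes lay above 0, and 2 of 5 BH3-only probes lay above 0 and 3 below, where 50.7% of all tested probes lay above 0. The medians were -0.14, 0.09 and -0.07. Probes of 1 gene share that gene's RNA, so these counts rest on 5, 2 and 2 genes, and a BCL2L2 probe, the 1 survival probe above 0, was further from 0 than any below. Groups did not overlap on 3 probes with siSTAT3 higher (BAX, BCL2L2 and the dim BAD probe) and 3 with siSTAT3 lower (BCL2L1, MCL1 and BID), where 15.1% of all tested probes did not overlap.

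**Figure D4:**
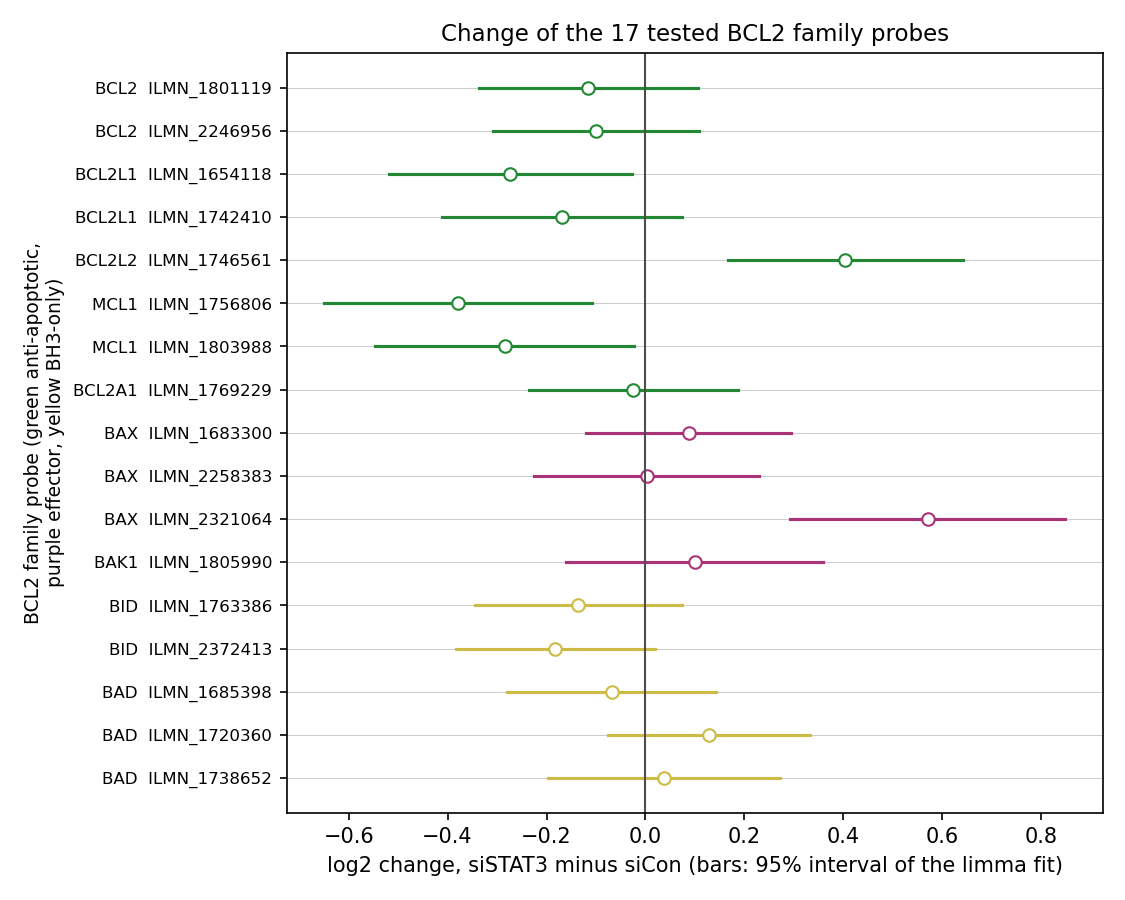
Log2 change, siSTAT3 minus siCon (x axis), of the 17 tested BCL2 family probes (y axis), coloured by role, with 95% intervals of the limma fit. All points are open because none passed the threshold, and the intervals of BAX ILMN_2321064, BCL2L2, both MCL1 probes and BCL2L1 ILMN_1654118 leave out 0.

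Other members of the family gave no call in the reported analysis. All 13 such genes had a probe, 18 of 25 probes were tested, and none was called (median log2 change -0.04). At the share of 0.871% called over all tested probes, that is no result about them. PMAIP1, the BH3-only gene for NOXA, which binds MCL1, came closest. It read 1812, 1748 and 2632 in siCon and 1393, 1368 and 1502 in siSTAT3, with no overlap and siCon replicate 3 far above the other controls (log2 change -0.51 ± 0.14, adjusted p = 0.11), and its other probe gave -0.35. Without siCon replicate 3 these changes were -0.33 (adjusted p = 0.151) and -0.086. BNIP3, a mitophagy receptor induced by hypoxia, gave 0.35 (adjusted p = 0.322), its relative BNIP3L 0.28 and 0.24, and BCL2L13 -0.22. Without siCon replicate 3, which read highest of the controls for both, BNIP3 rose by a log2 change of 0.51 (adjusted p = 0.017) and BNIP3L by 0.53 on probe ILMN_2045419 (adjusted p = 0.0165), in a fit that called 0.495% of all tested probes higher. The brighter BNIP3L probe, ILMN_1718961, gave 0.41 in that fit and was not called (adjusted p = 0.065).

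Downstream of BAX and BAK1, none of 16 tested probes for 11 genes of the apoptosome and of mitochondrial release was called (median 0.03). With 0.871% of all tested probes called, that is no result about these genes. The 4 genes with the smallest p-values were VDAC2, the channel that holds BAK1 at the membrane (0.32, adjusted p = 0.216), CASP9, the caspase started by cytochrome c (0.25, other probe 0.01), DIABLO, an inhibitor of IAP proteins (-0.27, -0.20 and -0.11), and APAF1, the scaffold of the apoptosome (0.18, other probe -0.04). All VDAC2 arrays of siSTAT3, at 164, 171 and 141, were above those of siCon, at 125, 127 and 128.

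SNAI2 (lower) and PPP3R1 (higher) were the 2 regulators of the family that passed, among 39 tested probes for 24 genes (median 0.00). That is 1 probe called higher and 2 lower, where 0.201% and 0.669% of all tested probes were. SNAI2 (SLUG) is known as a repressor of Bbc3 in mouse blood progenitors. It fell on both probes, from 1369, 1349.9 and 1379.6 to 532, 882 and 796 on ILMN_2082585 (log2 change -0.92 ± 0.15, adjusted p = 0.00565) and from 601 ± 53.7 to 376 ± 13.7 on ILMN_1655740 (-0.67 ± 0.10, adjusted p = 0.00369). SNAI2 was put on the list with its fall already known, so its 2 called probes are no result about the list. BBC3 lay near background, so no relation between SNAI2 and BBC3 could be read.

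PPP3R1, the regulatory subunit of calcineurin, the phosphatase that acts on BAD, rose from 627, 568 and 838 to 926, 1080.0 and 1316, with no overlap (0.71 ± 0.15, adjusted p = 0.0331). Its call was lost when any array other than siCon replicate 3 was left out, and without that array the change was 0.88 (adjusted p = 0.000327). The kinase AKT1, which phosphorylates BAD, gave -0.33 on each of its tested probes (adjusted p = 0.231 and 0.384), the stress kinase MAPK8 -0.32 and 0.02, and CASP8 -0.31, -0.10 and 0.13. FBXW7, a ubiquitin ligase subunit that marks MCL1 for degradation, gave 0.25, 0.15 and 0.04. Its 0.25 came from dim probe ILMN_1655906, whose siCon mean of 87.8 lay below the filter, against 104.7 in siSTAT3. The brightest FBXW7 probe, ILMN_1754279, gave the 0.15 with overlapping groups. No tested probe of these genes passed.

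**Figure D5:**
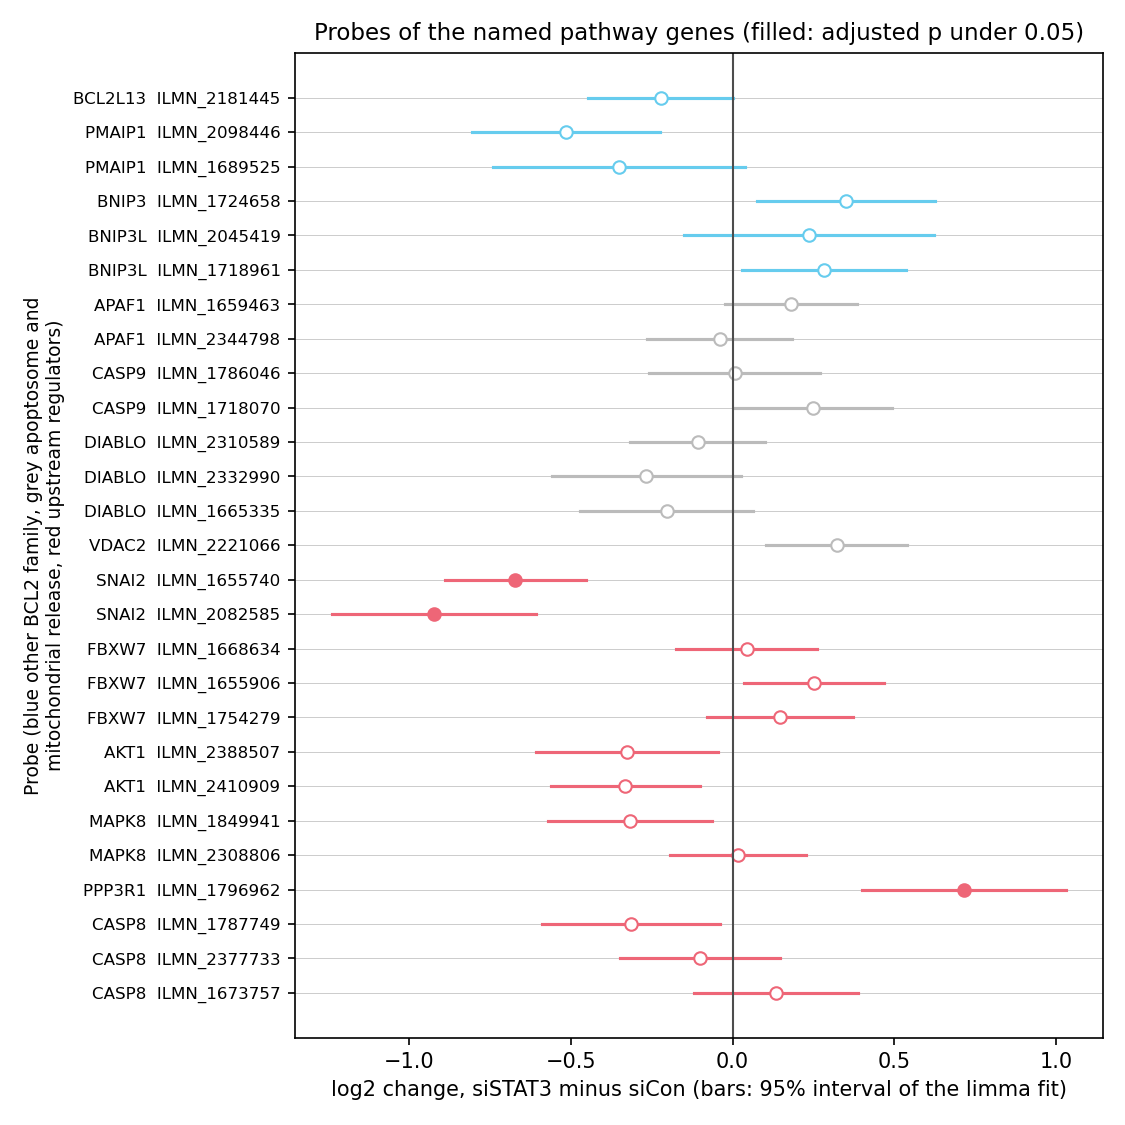
Log2 change, siSTAT3 minus siCon (x axis), with 95% intervals, of the tested probes of the named genes in the 3 pathway lists (y axis, coloured by list). Filled points passed the threshold, which both SNAI2 probes (-0.92 and -0.67) and the PPP3R1 probe (0.71) did.

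The probes of other genes whose log2 values over the 6 arrays most resembled BAX ILMN_2321064 were those of C19orf73 (Pearson r = 0.989), RTL8C (0.986) and RGL2 (0.986), the highest of 19382 named probes compared. Their own log2 changes were 0.25, 0.28 and 0.17, and none passed. With 6 arrays and so many probes, correlations of this size describe the likeness and carry no test.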

How the data were processed

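The authors deposited a table of unnormalised probe intensity and a table of processed intensity for the same 6 arrays. The submitters' processing notes name BeadStudio without a version. The tables hold no detection p-values, and any background subtraction by the authors is not stated in what was read here. Columns of the processed table all share 1 distribution.

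The unnormalised intensities were quantile-normalised and taken to log2, with no background subtraction. Groups and replicate numbers came from the sample titles. Of 48803 probes, 28098 had 1 gene symbol, 13 several and 20692 none in the annotation used here, and symbols were updated by Entrez ID through a RefSeq table of GRCh38.p14. Probes brighter on average than the 40th percentile were fitted with lmFit and eBayes in limma 3.58.1 under R 4.3.3, two-sided, with Benjamini-Hochberg adjustment over all tested probes and a threshold of 0.05. The fit was tested on simulated data. The number of arrays limits the precision. Family members, lists and naming rule were chosen with earlier results of these data known. Named were all family probes, STAT3, SNAI2, the called genes and the next 4 by adjusted p of each list, and the 3 probes most like the family probe of smallest adjusted p. Protein sequences were not used here. Some genes of the lists are not reported here.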

Additional observations from a re-analysis of the deposited data

How the results depend on the processing

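Results were recomputed under up to 15 alternatives (11 to 15 for a tested family probe, as filters and the choice of 1 probe per gene dropped some), and the comparison of a gene's probes under 9. Of the 17 tested family probes, none was called in the reported analysis, where 0.871% of all tested probes were. The BAX probe ILMN_2321064 made 1 call with a normexp background correction (adjusted p = 0.0489), with no filter (0.0377) and with 1 probe per gene (0.0486). These fits called 0.212%, 0.162% and 0.396% of their tested probes higher. BCL2L2 made 1 call without siCon replicate 2, where 0.263% of all tested probes were called higher. The family count thus ran from 0 to 1 over the arrays left out. Over the whole array 255 of 29282 tested probes were called, 409 with array weights, and 87 to 444 over the arrays left out (444 without siCon replicate 3, and 87, 107 and 87 without siSTAT3 replicates 1, 2 and 3). The other BCL2 family genes called ran from 0 to 2 over the arrays left out and the regulators from 1 to 2. The 2 other family genes were called without siCon replicate 3, where 0.495% of all tested probes were called higher. Signs turned for some changes near 0. With array weights BAX ILMN_2258383 gave -0.0022. Over the arrays left out it ran from -0.044 to 0.060, BCL2A1 from -0.056 to 0.030, BAK1 from -0.0090 to 0.20 and BAD ILMN_1738652 from -0.031 to 0.12. The difference between a gene's probes ran from -0.072 to 0.053 for BCL2 and from -0.34 to 0.095 for MCL1. The cause of these shifts was not tested. The probe comparison over all family genes, the pathway probes without each array and the E-box search were added after the data were seen. Both groups number their arrays 1 to 3, but deviations from the group means correlated only 0.04, 0.14 and 0.07 between arrays of the same number, so the numbers were not taken as pairs, although each siCon array correlated best with the siSTAT3 array of its number. With the replicate number as a block 395 of the 29282 tested probes were called, 1 of the family (BAX, adjusted p = 0.0347) and 1 other BCL2 family gene (PMAIP1, adjusted p = 0.0329).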
